A study of Drosophila melanogaster with 3 samples.

Results

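Of the 8858 peaks that the authors kept after an irreproducible discovery rate (IDR) step, 802, or 9.05%, had their summit at a divergent promoter, and these 802 peaks are described here. A divergent promoter was taken as a place where 2 protein-coding genes start close together and are read away from each other. A peak was chosen when its summit lay within 500 bp of a start site on the minus strand and within 500 bp of a start site of another gene on the plus strand, the minus-strand start having the lower coordinate. The choice used the position of the summit and the gene models only. Of the 802 peaks, 758 fitted 1 pair of genes and 44 fitted more than 1, and each was assigned to the pair with the closest start sites. This gave 728 different gene pairs, 654 with 1 summit and 74 with 2 summits. The 2 summits of a pair can lie in the same stretch called as a peak, as for Hrd3/PTPMT1 and RpS27/Nup37. The 802 are therefore not all separate sites. With summits within 250 bp of a stronger summit dropped, 728 summits remained.

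The study mapped by chromatin immunoprecipitation and sequencing (ChIP-seq) where the protein CG18599 was recovered, by means of green fluorescent protein (GFP) joined to its C terminus, in Drosophila melanogaster embryos. The 3 biological replicates, all of the strain CG18599-GFP, were whole embryos of both sexes aged 0 to 24 hours, precipitated with an antibody against GFP after sonication to fragments of 200 to 800 bp. They form 1 group, with no other condition and no control sample analysed here, so a recovery that untagged embryos would also give cannot be told apart from recovery of the tagged protein. Whole embryos of these ages mix all cell types and stages, and the labels do not say what drives the transgene or whether the endogenous gene was still intact. The lists hold no read numbers, so the depth of the libraries is unknown.

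In Drosophila, many neighbouring genes that all cells need lie back to back and share a short stretch of DNA from which both are transcribed outwards. Such promoters of broadly used genes often carry the DNA replication-related element, bound by DREF and, in its core, by the boundary protein BEAF-32, or the motif 1 element, bound by M1BP. CG18599 encodes a protein with a homeodomain, a fold that typically contacts DNA rich in A and T around a TAAT core.

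The DNA between the start sites is shown for the strongest divergent promoter peaks that could be printed, as plus-strand sequence of dm6 (RefSeq, the assembly Release 6). Only intervals of up to 300 bp that overlap no annotated exon were considered. Capitals mark the elements TATCGATA (DREF) and GGTCACAC (M1BP), the homeodomain palindrome TAATTA and the BEAF-32 core CGATA, on either strand, and adjoining elements run together. A match is a description of letters and not a measured site. Tcs5/CHMP2B (chr3L:5139396-5139618) had its summit at base 108 of the stretch, CG13390/CG17294 (chr2L:8376798-8377034) at base 91 and Art3/mRpS10 (chr3R:15229409-15229664) at base 123. In each name the minus-strand gene comes first.
Tcs5/CHMP2B: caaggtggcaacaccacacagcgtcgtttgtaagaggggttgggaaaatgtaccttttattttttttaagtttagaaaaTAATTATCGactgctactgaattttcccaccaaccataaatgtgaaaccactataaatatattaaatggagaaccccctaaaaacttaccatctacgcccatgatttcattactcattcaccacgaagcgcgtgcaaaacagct
CG13390/CG17294: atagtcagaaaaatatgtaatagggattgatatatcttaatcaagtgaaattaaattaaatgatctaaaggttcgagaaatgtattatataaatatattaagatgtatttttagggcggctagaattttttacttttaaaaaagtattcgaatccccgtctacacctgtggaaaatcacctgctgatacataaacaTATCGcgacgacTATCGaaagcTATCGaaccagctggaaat
Art3/mRpS10: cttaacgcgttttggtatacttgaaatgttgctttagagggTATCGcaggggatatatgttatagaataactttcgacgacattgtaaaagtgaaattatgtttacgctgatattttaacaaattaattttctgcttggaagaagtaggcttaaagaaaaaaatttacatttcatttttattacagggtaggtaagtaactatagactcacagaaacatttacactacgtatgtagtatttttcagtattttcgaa

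Of the other printable peaks, the strongest holding a DREF element, an M1BP element or the homeodomain palindrome are given next, because these elements are counted below. They were Atat/Shc (chr3L:9426759-9427009, summit at base 122), Surf6/RhoGAP92B (chr3R:19904869-19905163, summit at base 198) and Mkk4/SLIRP2 (chr3R:8650797-8651083, summit at base 158). In Atat/Shc the DREF element lay toward the plus-strand gene, and in Surf6/RhoGAP92B the M1BP element lay next to the plus-strand start site.
Atat/Shc: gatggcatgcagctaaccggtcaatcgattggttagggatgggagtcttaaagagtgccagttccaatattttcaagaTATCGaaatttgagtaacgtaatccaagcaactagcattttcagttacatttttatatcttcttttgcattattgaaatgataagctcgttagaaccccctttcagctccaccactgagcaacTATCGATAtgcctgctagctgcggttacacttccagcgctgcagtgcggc
Surf6/RhoGAP92B: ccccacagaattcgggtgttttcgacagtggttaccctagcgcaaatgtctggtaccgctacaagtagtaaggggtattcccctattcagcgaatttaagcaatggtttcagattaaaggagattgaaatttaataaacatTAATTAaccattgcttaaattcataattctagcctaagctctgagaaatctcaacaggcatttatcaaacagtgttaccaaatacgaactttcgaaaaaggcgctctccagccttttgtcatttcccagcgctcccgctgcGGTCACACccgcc
Mkk4/SLIRP2: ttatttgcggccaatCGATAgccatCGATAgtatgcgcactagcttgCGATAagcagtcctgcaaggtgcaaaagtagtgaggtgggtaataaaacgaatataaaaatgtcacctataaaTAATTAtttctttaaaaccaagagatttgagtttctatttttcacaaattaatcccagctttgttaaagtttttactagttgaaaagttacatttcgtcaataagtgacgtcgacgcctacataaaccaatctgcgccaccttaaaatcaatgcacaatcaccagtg

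A promoter of a cytosolic and one of a mitochondrial ribosomal protein gene are shown because these gene groups recur among the results. RpS27/Nup37 (chr3R:25247515-25247657, summit at base 12) held none of the capitalised elements. In mRpL24/betaggt-I (chr2L:4945362-4945578, summit at base 143), 71.4% of the bases were A or T and 1 palindrome was present.
RpS27/Nup37: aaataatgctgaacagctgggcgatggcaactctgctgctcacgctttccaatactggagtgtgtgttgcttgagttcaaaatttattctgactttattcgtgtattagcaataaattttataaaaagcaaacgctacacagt
mRpL24/betaggt-I: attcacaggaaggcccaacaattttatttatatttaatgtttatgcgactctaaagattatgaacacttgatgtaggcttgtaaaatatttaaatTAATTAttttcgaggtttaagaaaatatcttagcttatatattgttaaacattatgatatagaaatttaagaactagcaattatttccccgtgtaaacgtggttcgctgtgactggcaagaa

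Summits were denser at divergent promoters than at promoters of a single gene, meaning positions within 500 bp of start sites of exactly 1 protein-coding gene. The IDR list placed 802 summits in the 1.62 Mb of genome that meets the divergent rule, or 494 per Mb. It placed 2317 summits in 13.3 Mb at single-gene promoters, or 174 per Mb, and 5662 farther than 500 bp from any start site, or 47.8 per Mb. The 77 summits at several start sites in another arrangement gave 214 per Mb. To compare replicates, the 8858 strongest entries of each replicate's list, as many as the IDR list holds, were used as its top list. Divergent promoters then held 507, 549 and 459 summits per Mb in replicates 1, 2 and 3 (505 ± 45.3, SD, n = 3), and single-gene promoters 184, 182 and 155 (174 ± 16.0, SD, n = 3). The values of the 2 classes did not overlap.

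The ratio of the densities was 2.84 in the IDR list and 2.75, 3.01 and 2.95 in the replicates (2.90 ± 0.134, SD, n = 3). The difference was 331 ± 32.5 summits per Mb (SD, n = 3), positive in 3 of 3 replicates, with p = 0.25 in an exact two-sided sign-flip permutation test. With 3 replicates 0.25 is the smallest p this test can give, so no comparison here can pass the usual thresholds. After Benjamini-Hochberg adjustment over the 36 comparisons made, the smallest value was 0.321. The divergent rule keeps only bases close to 2 start sites, while the single-gene class reaches 500 bp to either side of a start. The ratio therefore depends on that distance, and it was 3.72 at 250 bp and 2.03 at 1000 bp.

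**Figure D1:**
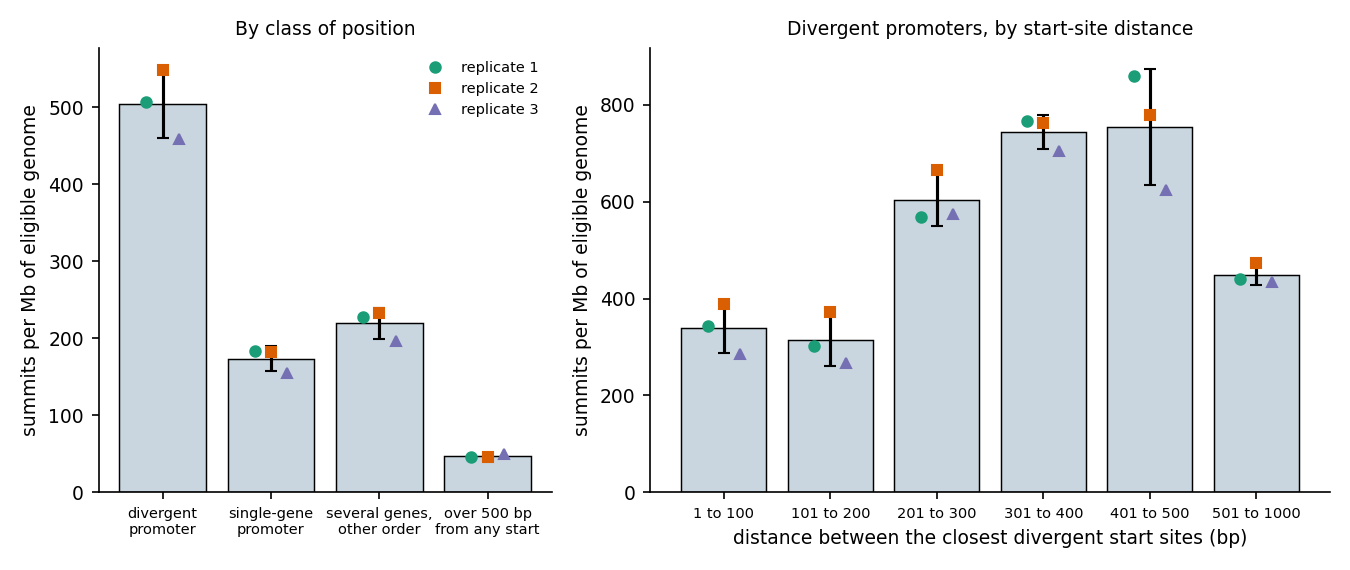
Summits per Mb of genome meeting each rule, by class of position on the left and, for divergent promoters, by distance between the closest start sites on the right. Bars are means of the 3 replicate top lists, error bars are SD and symbols are the replicates. Divergent promoters lie near 505 and single-gene promoters near 174. Pairs 301 to 500 bp apart are the densest, where fewer bases per pair meet the rule than for closer pairs.

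Counted by gene pair, 790 of the 2667 divergent pairs in the genome had an IDR summit within 500 bp of both start sites, a share of 29.6%. The replicate shares were 29.5%, 33.1% and 28.1% (30.2 ± 2.57, SD, n = 3). Of the 8893 genes without such a partner, 1515, or 17.0%, had a summit within 500 bp, with 17.8%, 17.8% and 15.1% in the replicates. The difference was 13.3 ± 1.79 percentage points (SD, n = 3), in the same direction in 3 of 3 replicates (exact sign-flip p = 0.25, adjusted p = 0.321). Divergent pairs include 5052 genes, 36.2% of all protein-coding genes, and 1503 of them, or 29.8%, had a summit at their pair.

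The distance between start sites went with both density and occupancy. Among the 802 peaks it ran from 1 to 864 bp with quartiles of 179, 285 and 392 bp, against 163, 301 and 502 bp for all divergent pairs. In the replicate top lists, pairs 301 to 400 bp apart held 744 ± 34.7 summits per Mb (SD, n = 3) and pairs 201 to 300 bp apart held 603 ± 54.1. Pairs 401 to 500 bp apart held 754 ± 119, within the spread of the 301 to 400 bp class. Pairs 101 to 200 bp apart held 314 ± 53.1, and pairs over 500 bp apart held 449 ± 20.3. The replicate values for 301 to 400 bp, 704 to 767, lay above those for 101 to 200 bp, 267 to 372. The closest pairs, up to 100 bp apart, gave 339 ± 51.6, which lay within the spread of the 101 to 200 bp class. The density also depends on distance by construction. Up to 500 bp, the bases that meet the rule grow fewer per pair outside the start sites, where summits were sparser. Bases meeting the rule numbered 388201 over 429 pairs up to 100 bp apart and 136103 over 267 pairs 401 to 500 bp apart. The part of this in the density differences was not tested.

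The share of pairs with a summit was highest at 201 to 400 bp, whereas the density was highest at 301 to 500 bp. It was 30.2 ± 4.78% for pairs up to 100 bp apart, 27.6 ± 3.81% from 101 to 200 bp, 42.3 ± 3.84% from 201 to 300 bp and 45.2 ± 1.75% from 301 to 400 bp (SD, n = 3). Farther apart it was 34.1 ± 2.97% up to 500 bp and 11.3 ± 0.773% beyond. The 201 to 300 bp and 301 to 400 bp classes overlapped in their replicates. The room in which a summit can meet the rule shrinks as start sites move apart, which lowers the share of the widest class by construction.

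The closest start sites belonged to Atg6/Pisd, 1 bp apart, where Atg6 encodes an autophagy protein and the summit ranked 3404 in the IDR list and 3607, 3799 and 3919 in the replicates. The widest pair was mRNA-cap/CG32599, 864 bp apart, where mRNA-cap encodes the mRNA capping enzyme and the summit ranked 8000. Its replicate ranks were 14346, 8420 and 7713, so only replicates 2 and 3 had it in their top lists. At the edge of the rule, the farther start site lay 498 bp from the summit for app/CG32100 and 497 bp for Atg8a/BTBD9, at ranks 719 and 7289. Just outside it lay 501 bp away for CG5946/RpL10Ab and 502 bp for eff/jvl, at ranks 3748 and 8420.

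By chromosome arm, divergent promoters carried 593 summits per Mb on 3L, 517 on 3R, 498 on 2L, 434 on 2R and 421 on X. None of the 11 divergent pairs of chromosome 4 had a summit of the IDR list.

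The summits lay mostly between the start sites. Of the 802, 601, or 74.9%, fell between the closest start sites, where these intervals make up 38.6% of the bases that meet the rule. For start sites over 500 bp apart the rule itself places every summit between them, as in 85 peaks. Without these, 516 of 717, or 72.0%, lay between, in 30.7% of the bases. With start sites at any distance included, the replicate shares were 73.3%, 74.0% and 75.2% (74.1 ± 0.959, SD, n = 3). Of the 802, 106 lay on the minus-strand gene's side of both starts and 95 on the plus-strand gene's side. Counting any pair of start sites that met the rule, 725, or 90.4%, were flanked on both sides. The summit was nearer to the minus-strand start in 376 peaks and nearer to the plus-strand start in 426. Its median distance to the midpoint was 73.5 bp, and 502 peaks, or 62.6%, lay within 100 bp of it.

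Many genes have several start sites, so the position was also read in the 466 peaks with 1 start site on each strand within 500 bp. Of these, 411, or 88.2%, had the summit between them, including 73 with start sites over 500 bp apart, where no other position meets the rule. Of the other 393, 338, or 86.0%, did. The share was 29.0% for pairs up to 100 bp apart, 73.1% up to 200 bp, 89.3% up to 300 bp, 94.3% up to 400 bp and 94.6% up to 500 bp. Summits sat closest to the midpoint, at a median of 29.0 bp, when the starts were 201 to 300 bp apart. For wider pairs they did not stay at the midpoint: the median distance to it was 72.8 bp at 301 to 400 bp and 99.0 bp at 401 to 500 bp. The median distance to the nearer start site meanwhile was 96, 105 and 134 bp in these 3 classes (replicate means 92.2 ± 5.58, 103 ± 14.9 and 122 ± 22.9, SD, n = 3), and the distance to the farther one 161, 250 and 322 bp. The replicate spreads of the distance to the nearer start overlap between neighbouring ones of these 3 classes. That distance was not the same throughout: it was 43.0 bp for pairs up to 100 bp apart, 59.5 bp up to 200 bp and 178 bp beyond 500 bp. Each class holds different genes, and its medians rest on 26 to 140 peaks.

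**Figure D2:**
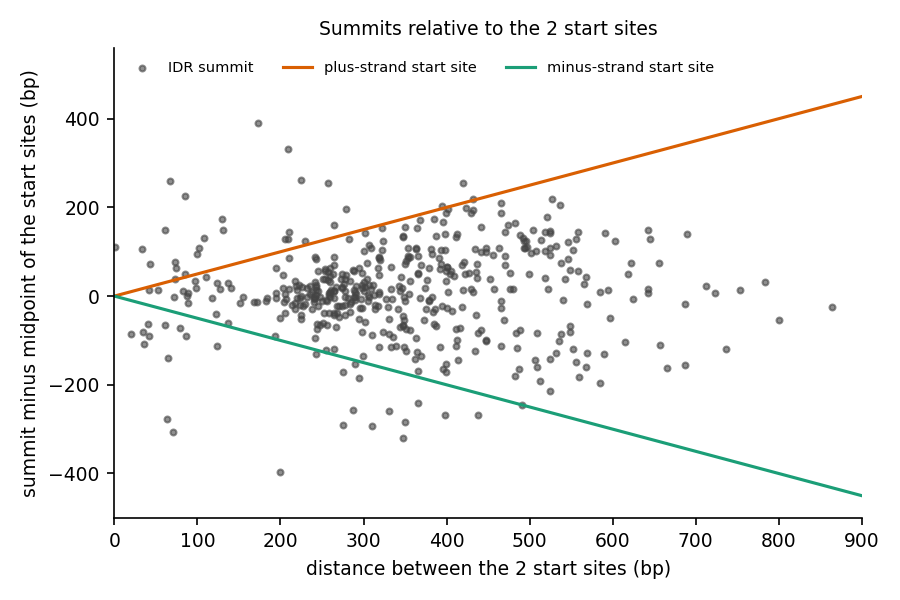
Position of the summit relative to the midpoint of the start sites (vertical axis, bp) against the distance between the start sites (horizontal axis, bp) for the 466 IDR peaks with 1 start site on each strand. Points between the lines lie between the start sites, 411 in all, and for distances above about 300 bp they spread toward the lines rather than along the midpoint.

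Divergent promoter peaks were frequent near the top of the list. The signal values, whose scale no source used here states, ran from 224 to 5859 with a median of 540, against a median of 415 at single-gene promoters, and are used below as ranks only. The median rank was 2788, compared with 4061 for single-gene promoters and 4784 for summits over 500 bp from any start. With the IDR list cut into 10 equal steps by rank, they made up 16.8% of the strongest step, 15% of the next, 8.58% of step 5 and 4.29% of the weakest. The strongest 10% of all IDR peaks (886 peaks) held 149 of the 802, or 18.6%, against 14.1% of single-gene promoter peaks and 7.08% of those over 500 bp from any start.

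In the replicate top lists the shares in the strongest 10% were 16.9%, 18.0% and 17.7% at divergent promoters and 13.7%, 13.7% and 14.9% at single-gene promoters. The difference of 3.44 ± 0.803 percentage points (SD, n = 3) was positive in 3 of 3 replicates (exact sign-flip p = 0.25, adjusted p = 0.321). It did not hold within the upper part of the list: among the 4429 strongest IDR peaks alone, the share in their strongest 10% differed by -0.964 percentage points, divergent minus single-gene. Those 4429 peaks held 543 at divergent promoters. Of the 25, 50 and 100 strongest IDR peaks, 3, 9 and 16 were at divergent promoters, beside 9.05% of the whole IDR list. By start-site distance, the share in the strongest 10% was 26% for pairs up to 100 bp apart and 16.3% for 101 to 200 bp. It was 25.2% for 201 to 300 bp, 15.5% for 301 to 400 bp, 10.3% for 401 to 500 bp and 8.24% beyond.

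**Figure D3:**
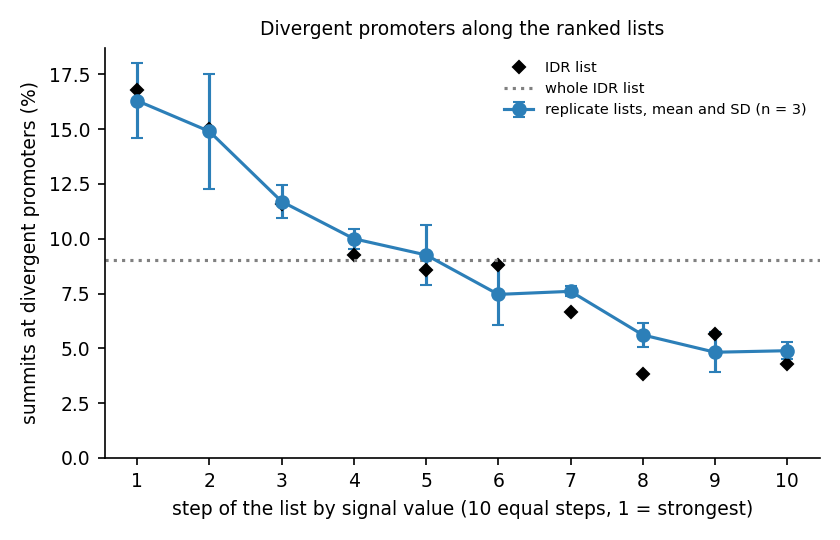
Percentage of summits at divergent promoters (vertical axis) in each of 10 equal steps of the ranked list (horizontal axis, 1 is the strongest). Circles are the mean and SD of the 3 replicate top lists, diamonds are the IDR list and the dotted line is the whole IDR list at 9.05%; the diamonds fall from 16.8% to 4.29%.

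Replicates placed the peaks alike, which the IDR step favours and which is therefore no independent evidence. Within 250 bp of the 802 summits, the top lists had a summit for 89.4%, 92.8% and 83.9% of them (88.7 ± 4.47, SD, n = 3), close to the 86.4 ± 5.15% of single-gene promoter peaks. All 3 replicates had a summit for 586 peaks, or 73.1%, and 3 peaks had none in any top list. The strongest entries within 250 bp had median ranks of 2598, 2267 and 2923 in the replicates, against 3525, 3580 and 4040 for single-gene promoter peaks. A weaker summit can thus take the rank of a stronger one beside it, as did the RpS27/Nup37 summit at IDR rank 1883. Between 38 and 41 of the 802 had no entry at all within 250 bp in a given replicate.

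The 15 strongest divergent promoter peaks kept high ranks in every replicate, from 16 to 104 in replicate 1, from 19 to 79 in replicate 2 and from 20 to 103 in replicate 3. The first lay between mRpS23, a protein of the mitochondrial ribosome, and CenG1A, an Arf GTPase-activating protein (2L, 13835265 to 13835660, start sites 492 bp apart). It ranked 19 in the IDR list and 16, 24 and 20 in the replicates. The next, at rank 20, was assigned to Chro, which encodes a chromodomain protein of the interbands of polytene chromosomes, and Ssl1, a subunit of the general transcription factor TFIIH. Its replicate ranks were 25, 20 and 26. Its summit lay 83 bp inside Chro and not between the start sites, which are 105 bp apart.

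Next came Tcs5 with CHMP2B, an ESCRT-III protein of membrane scission, at rank 24, and CG13390/CG17294 at rank 27. Art3, a protein arginine methyltransferase, shared the peak at rank 30 with mRpS10 of the mitochondrial ribosome, and eIF4EHP, a cap-binding repressor of translation, shared that at rank 31 with CG18428. Replicate ranks of these 4 peaks ran from 19 to 35. Pdrg1/Pal1 followed at rank 32 and CG11309/CG7632 at rank 35. CG5611/Mtl lay at rank 49 (54, 42 and 71 in the replicates), and CG3437/CG3552 stood at rank 57.

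The remaining 5 of these 15 included Pex11ab, a peroxisome division protein, with CG8320 at rank 74, and Lon, the mitochondrial protease, with PIG-F of glycosylphosphatidylinositol anchor synthesis at rank 78. Stt3A, the catalytic subunit of the oligosaccharyltransferase, lay with bves at rank 81 on X. There the start sites were 26 bp apart, and the summit lay 384 bp from the Stt3A start, downstream of that of bves. Fbw5/CG9147 and CG8372/CG8360 stood at ranks 82 and 86. In 6 of the 15 the summit was not between the closest start sites, and these 6 were the pairs with the shortest distances, from 26 to 105 bp.

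Gene groups were listed by symbol, so genes of a group with other kinds of name are left out. Among the 20 lists, cytosolic ribosomal protein genes had the highest share with a summit at divergent pairs. Of their 53 genes at such pairs, 35, or 66.0%, had an IDR summit (34, 35 and 31 in the replicates, 62.9 ± 3.93%, SD, n = 3), where all genes at divergent pairs gave 29.8%. This was not limited to divergent promoters, since 20 of the 35 ribosomal protein genes without a divergent partner, or 57.1%, had a summit too, beside 17.0% of all genes without one. With start sites within 250 bp, 17 of 34 genes had a summit, beside 954 of all 3815 genes at such pairs. The 40 peaks had a median rank of 1566, and 14 of them were in the strongest 10%. The strongest were those of RpS27, paired with the nucleoporin gene Nup37 (rank 148; 133, 127 and 236 in the replicates), of RpL7 with Ripalpha (rank 155; 99, 132 and 310) and of RpL34b with CG8132 (rank 271; 281, 252 and 313). Genes with no summit at their pair included RpL5, RpL8, RpS7 and RpS12.

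Of 58 mitochondrial ribosomal protein genes at divergent pairs, 27, or 46.6%, had a summit (22, 31 and 22 in the replicates, 43.1 ± 8.96%). Of the 15 without a divergent partner, 1 had one. After mRpS23 and mRpS10, the strongest was mRpL23 with CG9004 at rank 92. Vesicle transport genes, matched as Vps, Rab and Sec, had a summit for 20 of 46, or 43.5% (20, 20 and 15 in the replicates), led by Vps33B, a component of a membrane-fusion complex, with the protease gene Fur1 at rank 269. Sec6 of the exocyst with the autophagy gene Atg7 stood at rank 1146, and Sec61alpha, the protein translocation channel, with Daxx at rank 1236. Only 1 of the 20 was in the strongest 10%. Of 22 aminoacyl-tRNA synthetase genes, which charge tRNAs with amino acids, 9, or 40.9%, had a summit (8, 10 and 8 in the replicates). With start sites within 250 bp it was 4 of 20, a lower share than that of all genes at such pairs (954 of 3815). SerRS/CG17260 ranked 633, Patsas/ThrRS 741 and Hem/IleRS 826, where Hem encodes a subunit of the actin-regulating WAVE complex.

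Several other groups of widely used genes lay near the background of 29.8%. Proteasome genes had a summit for 9 of 26, among them the regulatory particle subunits Rpn5 beside the histone acetyltransferase gene Hat1 (rank 1595), Rpn3 beside l(2)37Bb (1662) and Rpt5 beside RanBP3 (3674). Respiratory chain genes had 12 of 42, led by the complex I subunit ND-ASHI with the fumarase gene Fum1. That peak ranked 172 (130, 239 and 161 in the replicates), and TppII/ND-MWFE and ND-51/CG13994 followed at 1034 and 1210. Nuclear pore genes had 5 of 18, with Nup98-96/mbc at 1569 and wfs1/Nup133 at 1934 behind Nup37. Mediator genes, for the complex that links activators to RNA polymerase II, had 6 of 19. MED30 beside the translesion polymerase gene Rev1 stood at 330, elm/MED27 at 656 and CG12321/MED17 at 1080. RNA polymerase genes had 6 of 20: 140up/Polr2B stood at 462, CG10584/Polr3E at 500 and Polr2J/CG15141 at 1312. For Polr2J the strongest entry of replicate 1 within 250 bp ranked 27835, far outside its top list, against 1045 and 1522 in the others.

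General transcription factor genes, matched as Taf before a digit or Tf before a capital letter, had a summit for 5 of 17. These included the TFIID subunits Taf5, beside the peroxisome gene Pex6 (975), and Taf2, beside CalpB (1132). TfIIA-L, beside pll, a kinase of the Toll pathway, stood at 1058. Ssl1 of TFIIH, at rank 20, and Tfb4, paired with Vps29 at rank 6043, have other kinds of symbol and were not counted. Translation factor genes had 6 of 26. After eIF4EHP came eIF1, which shares 2 summits with RpL28 (ranks 616 and 3453), and eIF3h with senju (840). The stronger RpL28/eIF1 peak ranked 449 and 504 in replicates 1 and 2 but 7162 in replicate 3. Chaperone genes had 5 of 14 (3 of 9 within 250 bp), led by the mitochondrial Hsp70 gene Hsc70-5 with CG8531 at 508. The peak at the small heat shock genes Hsp22 and Hsp67Bc, assigned to Hsp67Bc/CG4456, stood at 4399 and tefu/Hsc70-4 at 5302.

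The smallest lists gave counts too low to rank, and those of the mitochondrial import and replication genes fell from 2 to 1 within 250 bp. Integrator genes, for the complex that processes small nuclear RNAs, had 4 of 8, at IntS6/Rtel1 (918), Wdr24/IntS11 (1385) and IntS9/CG43295 (1444) among others. Mitochondrial import genes had 2 of 5, the stronger peak being that of Tom7 with CG8229 (988). The replication list, matched as Mcm, Orc and Pol symbols only, had 2 of 14. These were Mcm2 beside RPA1 (1739) and Mcm5 beside Art1 (7381), where Mcm2 and Mcm5 are subunits of the replicative helicase. Replication genes with other names were not counted. The symbol pattern for the exosome, Rrp, gave 1 of 8. That gene, Rrp1 beside gammaTub23C (689), encodes a DNA repair nuclease and not an exosome subunit. No exosome gene with an Rrp symbol had a summit at its pair, and exosome genes with other names were not counted.

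Lists of genes used in particular tissues had few members at divergent pairs, from 3.95% of homeobox genes to 15.3% of cytochrome P450 genes, beside 36.2% of all genes. Of 95 cuticle genes 4 were at such pairs, and none of the 4 had a summit. Of 26 chemoreceptor genes at divergent pairs 1 had a summit, Ir60e beside CG13585 (rank 3840), and of 13 cytochrome P450 genes 1 did, Cyp9f2 beside CG5167 (3003). Of 76 homeobox genes 3 were at divergent pairs and 1 had a summit, ro, which acts in the eye, beside T48, which acts in apical constriction at gastrulation (4047, and 9833 in replicate 3, outside its top list). These single chemoreceptor, cytochrome P450 and homeobox genes had no summit within 250 bp of both start sites. Among the pairs to which peaks were assigned, 6 had both genes in the lists. RpS27/Nup37, RpL28/eIF1 and Vps39/eIF1A had 2 summits each, and ATPsynCF6/Sec13, Sec3/COX7B and mRpL39/Prosbeta2 had 1 each.

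**Figure D4:**
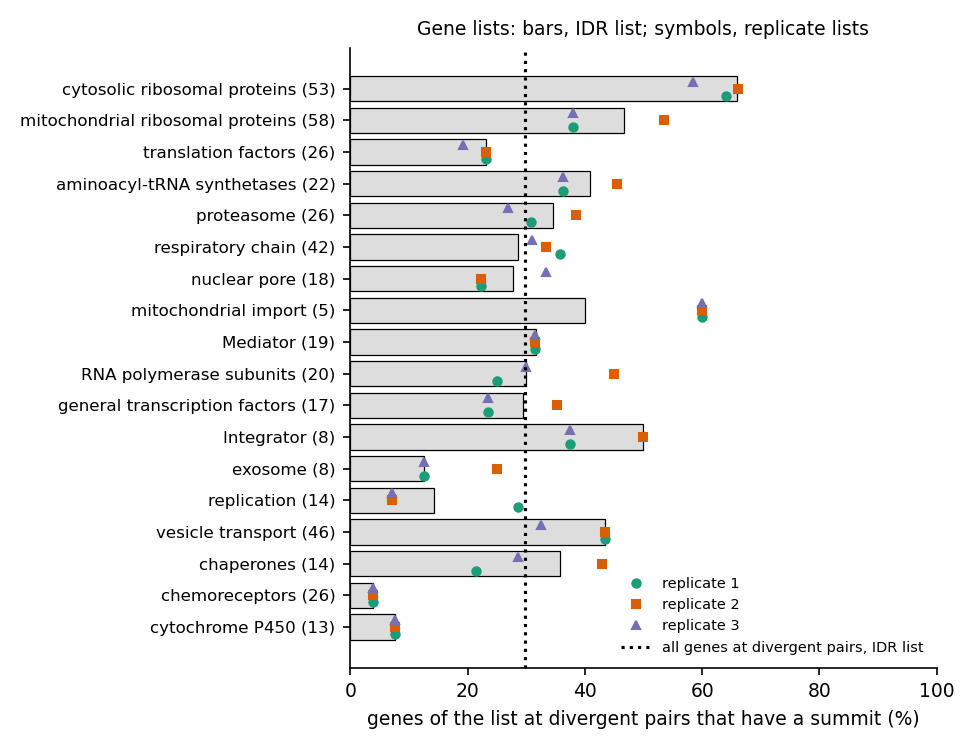
Percentage of the genes of each list at divergent pairs that had a summit within 500 bp of both start sites (horizontal axis), with the number of such genes in parentheses. Bars are the IDR list, symbols the 3 replicate top lists and the dotted line all genes at divergent pairs (29.8%); cytosolic ribosomal protein genes reach 66.0% and chemoreceptor genes 3.85%. Lists with fewer than 5 such genes are not drawn.

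Short motifs were searched on both strands within 100 bp of the summits. The DREF element TATCGATA was present at 85 of the 802 summits, or 10.6%, against 2.89% at single-gene promoters. In the replicates the shares were 9.69 ± 0.928% and 3.04 ± 0.711% (SD, n = 3). The M1BP element GGTCACAC was present at 57, or 7.11%, against 2.16% (6.65 ± 1.30% and 2.26 ± 0.569% in the replicates). Both elements occurred together at 2 summits, and 662, or 82.5%, held neither. The BEAF-32 core CGATA, which lies within TATCGATA and is counted there too, was present at 45.1% against 30.0%. The homeodomain palindrome TAATTA was present at 21.7% against 13.5%, with 22.1 ± 1.76% and 13.7 ± 1.15% in the replicates, and its TAAT part, counted in it as well, at 94.6% against 81.9%.

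Some elements were rarer at divergent promoter summits than at single-gene ones. GAGAG, bound by the GAGA factor, was present at 15.5% against 31.7% (15.4 ± 0.826% and 31.2 ± 2.43% in the replicates). The initiator letters TCAGT were present at 29.7% against 36.6%. In contrast, the TATA box letters TATAAA were more frequent, at 45.0% against 29.7%, and the E-box form CAGCTG was present at 13.3% against 11.5%. For the other E-box form, CACGTG, the IDR list gave 2.00% against 2.46%, while all 3 replicates had the higher share at divergent promoters. All differences other than that of CACGTG had 1 direction in the IDR list and in the 3 replicates, each with an exact sign-flip p = 0.25 and adjusted p = 0.321. Base composition differed as well. A and T made up 65.1% of the bases within 100 bp of divergent promoter summits and 60.1% at single-gene promoters, and their share at divergent promoters fell from 67.1% in the 51 bp at the summit to 52.4% and 52.5% at 400 bp to either side. The part of base composition in the motif differences was not tested. The windows also differed in place. Divergent promoter summits lay within 500 bp of start sites of at least 2 genes, single-gene ones of 1 gene. The part of this was not tested either. The size of the differences depended on the window. With 50 bp to each side, the difference in TATCGATA was 2.28 percentage points in place of 7.71, and with 200 bp it was 14.7. For GGTCACAC it was 1.59 and 9.81 in place of 4.95, and for CAGCTG 1.21 and 10.4 in place of 1.86. For TAATTA it was 4.50 and 9.30 in place of 8.23.

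Divergent promoters without a summit offer a comparison within the same kind of promoter, taken at the midpoint of the start sites. Over all 2667 pairs, 8.55% held TATCGATA, 5.40% held GGTCACAC and 22.1% held TAATTA within 100 bp of the midpoint. TATCGATA was present at 8.73% of pairs with an IDR summit and 8.47% of pairs without, higher in 1 of 3 replicates (exact sign-flip p = 0.75, adjusted p = 0.771). GGTCACAC was present at 4.43% and 5.81%, and lower in pairs with a summit in 3 of 3 replicates (exact sign-flip p = 0.25, adjusted p = 0.321). Even without a summit, these shares lay above the 2.89% and 2.16% of single-gene promoter summits, though the windows are centred differently. TAATTA was present at 25.4% of pairs with a summit and 20.7% without. The replicates gave 25.9 ± 1.13% and 20.4 ± 0.357%, higher in 3 of 3 (exact sign-flip p = 0.25, adjusted p = 0.321). It was not alone in this. TATAAA was present at 42.9% of pairs with a summit and 38.5% without, higher in 3 of 3 replicates, and TCAGT at 28.0% and 32.8%, lower in 3 of 3, both with the same exact p and adjusted p. GAGAG was present at 14.9% and 14.4%, higher in 3 of 3 replicates, so its share was low at divergent pairs without a summit as well.

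Since occupied pairs differ in start-site distance, the comparison was repeated in the 942 pairs 201 to 400 bp apart, a restriction chosen after the data were seen. There TAATTA was present at 31.8% of the 400 pairs with a summit and 26.4% of the others (32.6 ± 1.06% and 25.7 ± 0.604% in the replicates, higher in 3 of 3). TATCGATA was present at 8.75% and 6.09% there (8.34 ± 0.620% and 6.31 ± 0.619% in the replicates, higher in 3 of 3), unlike over all pairs. As replicate means, TATAAA was present at 48.5% and 43.2%, and TCAGT at 26.3% and 29.5%, each in the same direction in 3 of 3 replicates. A and T made up 69.7% and 68.5% of the bases, so the occupied pairs were also slightly richer in these bases, and the part of this in the TAATTA and TATAAA differences was not tested. Among the 802 peaks, the 174 with TAATTA had a median rank of 2208 and the 628 without it 3060, while their shares in the strongest 10% were close, at 19.5% and 18.3%. The 85 with TATCGATA stood at 3136 and the 57 with GGTCACAC at 4825.

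**Figure D5:**
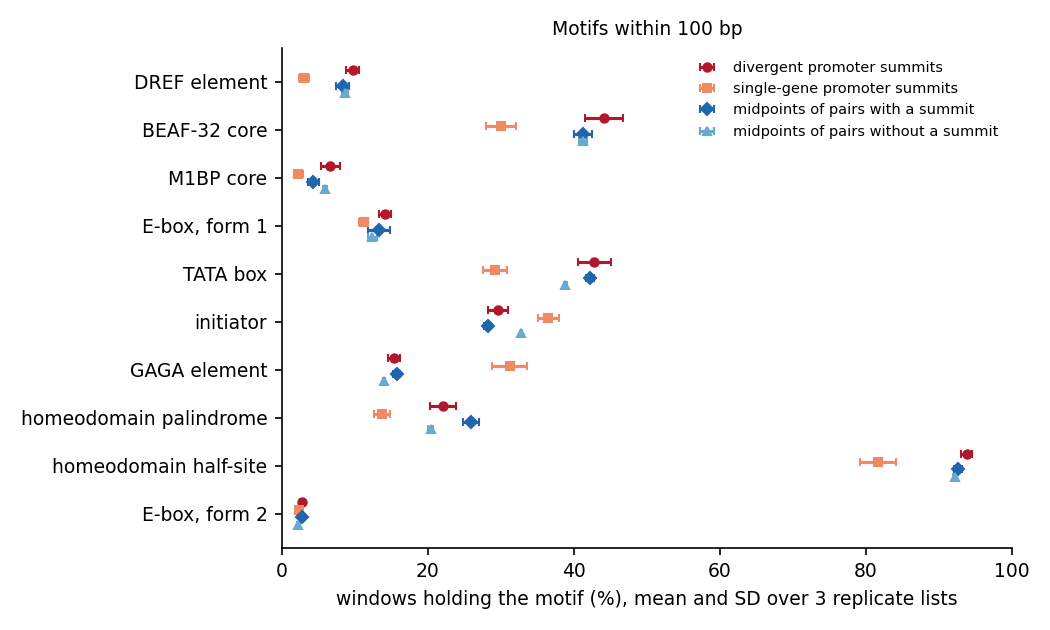
Percentage of windows (100 bp to each side) holding each motif, as mean and SD over the 3 replicate top lists, at divergent promoter summits, single-gene promoter summits and the midpoints of divergent pairs with and without a summit. E-box form 1 is CAGCTG and form 2 is CACGTG; the DREF element is at 9.69% of divergent and 3.04% of single-gene promoter summits, with both kinds of midpoint near the former, while midpoints with and without a summit lie apart for the homeodomain palindrome (25.9% and 20.4%), the TATA box (42.2% and 38.8%) and the initiator (28.2% and 32.8%).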

How the data were processed

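ChIP-seq peak lists of 3 biological replicates of CG18599-GFP embryos were analysed on dm6. How reads were aligned, how peaks were called and which IDR threshold applied is not given in the sources used here. Per the deposited notes, a replicate's list came from its own and a control's alignments. Replicate and pooled lists hold 30000 entries each, and the 8858 IDR peaks are the strongest entries of the pooled list. The pooled list is labelled as peaks and background. Signal values are a score that the authors computed and deposited, on an unstated scale, and they served to rank peaks within a list. The deposited −log10 q-value stood at its maximum for 55.2% of IDR peaks and served as an alternative ranking. The deposited offset gave the summit.

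Start sites were those of protein-coding transcripts in Ensembl release 115 (19607 sites of 13945 genes), and sequence came from the RefSeq genome. Gene lists were made by symbol and leave out genes of a group that have other names. Genes named were both genes of the 15 strongest divergent promoter peaks, of the 3 strongest per list, of the closest and widest pairs and of the peaks nearest the 500 bp limit; the ribosomal protein genes without a summit and the pairs with both genes in the lists were chosen after their values were seen. One peak that this rule names is not reported here. Members, lists, motifs and tests were chosen with earlier results of these data known. Peaks are not replicates, so classes were compared over the 3 replicate top lists by an exact two-sided sign-flip permutation test, adjusted by Benjamini-Hochberg over 36 comparisons. Alternatives were the start-site distance, 1 outermost start site per gene, the stronger part of the list, leaving out a replicate, dropping neighbouring summits, the q-value ranking, motif windows and the matching distance. Steps were tested on simulated data. Python 3.11.15, numpy 2.4.6 and pandas 2.3.3 were used. The dm3 lists were not used.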

Additional observations from a re-analysis of the deposited data

Results flagged for a closer look

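The pooled list continues below the IDR list with 19543 summits more than 250 bp from any IDR summit, and 272 of them, or 1.39%, lay at divergent promoters. The deposited label describes the pooled list as peaks and background, so these entries are not established peaks. The comparisons did not use them, and there is no control sample to set them against. Per Mb of genome more than 250 bp from any IDR summit, they amount to 216 at divergent promoters, compared with 218 at single-gene promoters and 143 over 500 bp from any start site. Divergent promoters kept 77.4% of their bases under that limit and single-gene promoters 91.8%. With them, 251 further pairs had a summit, and 1626 pairs, or 61.0%, had none in either list.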

How the results depend on the processing

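With start sites within 250 bp, 465 peaks were at divergent promoters, the density ratio was 3.72, the lead in the strongest 10% was 12.0 percentage points, 76.1% of summits lay between the start sites and 25.5% of pairs had a summit. Within 1000 bp the ratio was 2.03, the lead 3.13 points and the share between 66.4%. With only the outermost start site of each gene, the ratio was 3.13 and the share between 76.3%. Dropping summits within 250 bp of a stronger summit left 728 peaks and a ratio of 2.81. In the 4429 strongest IDR peaks the ratio was 3.58, 21.4% of pairs had a summit and the lead turned to -0.964 points; the cause was not tested. Between start sites of any pair, an alternative chosen after seeing the data, lay 90.4%. Replicate support was 82.9% within 100 bp.

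Leaving out each replicate in turn kept the IDR peaks found in both others, which lowers counts by construction. This gave 619 to 672 peaks, ratios of 2.95 to 3.01, leads of 3.70 to 3.92 points, 74.5% to 75.1% of summits between and 22.9% to 24.9% of pairs with a summit. Of 30 motif alternatives, 22 moved the difference beyond the replicate spread, such as GGTCACAC in the stronger peaks (2.84 points). The only change of sign was that of CACGTG in the stronger peaks (0.0943 points). Of 20 gene list counts, 8 moved by over 1.5 times at 250 bp. No paired analysis between groups was possible because there is 1 group. Unknown depth limits what a missing summit can show.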
